A study of Mus musculus with 96 samples.

Results

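The acinar cells of the pancreas make and secrete the digestive enzymes of the small intestine, and 10 genes of that secretory program were followed here through 96 RNA-seq libraries of mouse tissues. The 10 genes (Cpa1, Cpb1, Ctrb1, Cela1, Cela2a, Cela3b, Prss2, Pnlip, Clps and Pdia2) were taken by symbol from a count table of 41575 symbols, of which 22493 had a count in any library. They served as a gauge of pancreatic RNA in each library, as counts scaled to a library total of 1000000 (CPM). They were picked with their levels in these libraries already known, so levels are given below as a description, without tests. Of the 10 genes, 9 had counts, and Clps was listed at 0 in all 96 libraries.

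The libraries came from 16 tissues of 3-week-old mice of 2 genotypes, wild-type (WT) and Scx-/-, with 3 libraries for each tissue and genotype. Scx encodes scleraxis, a basic helix-loop-helix transcription factor of tendon and its progenitors. No tissue label names the pancreas. Organs were removed whole and frozen. Barcoded RNA samples were pooled and sequenced by a strategy enriched for the 3′ ends of polyadenylated RNA (MuSeq), and counts were not divided by transcript length. The allele, the sex and the background of the mice, and whether libraries with the same replicate number came from the same animal, were not given in the sources used here, so that p-values below measure only the spread between these libraries.

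Acinar cells store most of their products as inactive precursors in zymogen granules and release them into the duct on a meal. The proteases among them form a chain in which trypsin, once cut free in the gut, activates the others, while pancreatic lipase needs its small cofactor colipase to work on fat in the presence of bile salts. Transcription of these genes in the pancreas rests on PTF1, a complex of the acinar factor PTF1A, an E protein and RBPJL, which binds a bipartite site made of an E-box (CACCTG) and a TC-box (TTTCCC). The pancreas lies between the stomach, duodenum and spleen, embedded in mesenteric fat.

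The upstream sequences of 3 of these genes are shown because they place the elements named above at genes whose counts the results turn on. Cela1 was the gene found most widely outside the libraries rich in acinar RNA, Ctrb1 gave the most counts, and Prss2 is trypsinogen. They are the RefSeq sequences (GRCm38.p6) before the RefSeq start of each gene, 5′ to 3′ on the gene's strand. They lie at chr15:100687922-100688170 (minus strand) for Cela1, chr8:111691011-111691260 (minus strand) for Ctrb1 and chr6:41521526-41521775 (plus strand) for Prss2. The Cela1 sequence stops just short of its RefSeq start at 100687920, and its positions below are counted from that start. Capitals mark the E-box CACCTG, the TC-box TTTCCC and the TATA box TATAAA on either strand, where the first may read CAGGTG, the next GGGAAA and the last TTTATA.
Cela1: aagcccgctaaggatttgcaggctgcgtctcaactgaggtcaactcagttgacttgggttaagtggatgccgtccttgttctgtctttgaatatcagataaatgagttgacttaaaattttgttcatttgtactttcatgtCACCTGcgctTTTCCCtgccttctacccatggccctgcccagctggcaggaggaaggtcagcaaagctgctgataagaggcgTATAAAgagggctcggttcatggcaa
Ctrb1: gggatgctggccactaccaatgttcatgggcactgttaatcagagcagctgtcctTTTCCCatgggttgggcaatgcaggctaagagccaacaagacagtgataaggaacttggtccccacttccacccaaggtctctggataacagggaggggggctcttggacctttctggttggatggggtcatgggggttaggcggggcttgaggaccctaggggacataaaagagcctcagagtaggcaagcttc
Prss2: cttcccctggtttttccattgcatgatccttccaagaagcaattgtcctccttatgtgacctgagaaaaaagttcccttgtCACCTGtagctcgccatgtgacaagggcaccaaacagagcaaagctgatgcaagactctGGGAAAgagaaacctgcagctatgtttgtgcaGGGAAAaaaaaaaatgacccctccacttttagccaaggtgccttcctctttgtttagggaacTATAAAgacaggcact
In Cela1, CACCTG stood 109 to 104 bases and TTTCCC 99 to 94 bases before the start, with TATAAA at 27 to 22 bases. In Prss2 the E-box letters lay 169 to 164 bases before the start, and GGGAAA occurred at 110 to 105 and again at 78 to 73 bases. Ctrb1 held TTTCCC at 195 to 190 bases and none of the other 2 motifs in this window. Searched on both strands in windows of up to 250 bases, CACCTG was present in 6 of 9 promoters of the genes studied and in 17.2% of 32851 promoters in the table, TTTCCC in 5 of 9 against 21.9%, and TATAAA in 3 of 9 against 12.4%. CACCTG and TTTCCC occurred together in Cela1, Cela2a and Prss2, and in 3.61% of all promoters. These matches are a description of the letters, and binding was not measured.

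The genes lie apart in the genome (GENCODE vM21, GRCm38). Cpa1 is on chromosome 6 at 30639218 to 30645363, Prss2 on the same chromosome at 41521787 to 41525079, Cpb1 on chromosome 3, Cela2a and Cela3b on chromosome 4, Ctrb1 on chromosome 8, Cela1 on chromosome 15, Clps and Pdia2 on chromosome 17 and Pnlip on chromosome 19. Cela2a (141814962 to 141826160, minus strand) overlaps the chymotrypsin C gene Ctrc on its own strand and Casp9 on the other, so reads there may be shared. Prss2 belongs to a cluster of near-identical trypsinogen genes with Try4, Try5 and 2210010C04Rik, and counts may likewise be split among them.

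Library totals ran from 11244 to 1658192 counts with a median of 251640, and 3 counts, the most that a listed 0 allows, came to 1.81 to 266.8 CPM depending on the library. Scx itself had 80 counts in 12 of 48 WT libraries and 9 counts in 1 of 48 Scx-/- libraries, the cartilage library labelled Scx-/- replicate 1, where it reached 37.2 CPM. Scx was at 0 in all adipose, spleen, liver, intestine, bladder, heart, hippocampus and rectum libraries of both genotypes, so that it checks no label there.

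The 10 genes together collected 750545 counts, and 92.2% of these fell in the 6 libraries labelled adipose. In the plot of summed CPM by tissue, adipose stood apart from the other 15 tissues, none of whose libraries reached its range. Their counts took 41.3% ± 5.81 of a WT adipose library and 42.8% ± 2.35 of an Scx-/- one (SD, n = 3), or 346406 to 454806 CPM over the 6 libraries. With the other acinar secretory genes listed for comparison, acinar transcripts made up 68.1% to 78.9% of each adipose library. The libraries labelled adipose thus carried chiefly acinar transcripts.

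**Figure D1:**
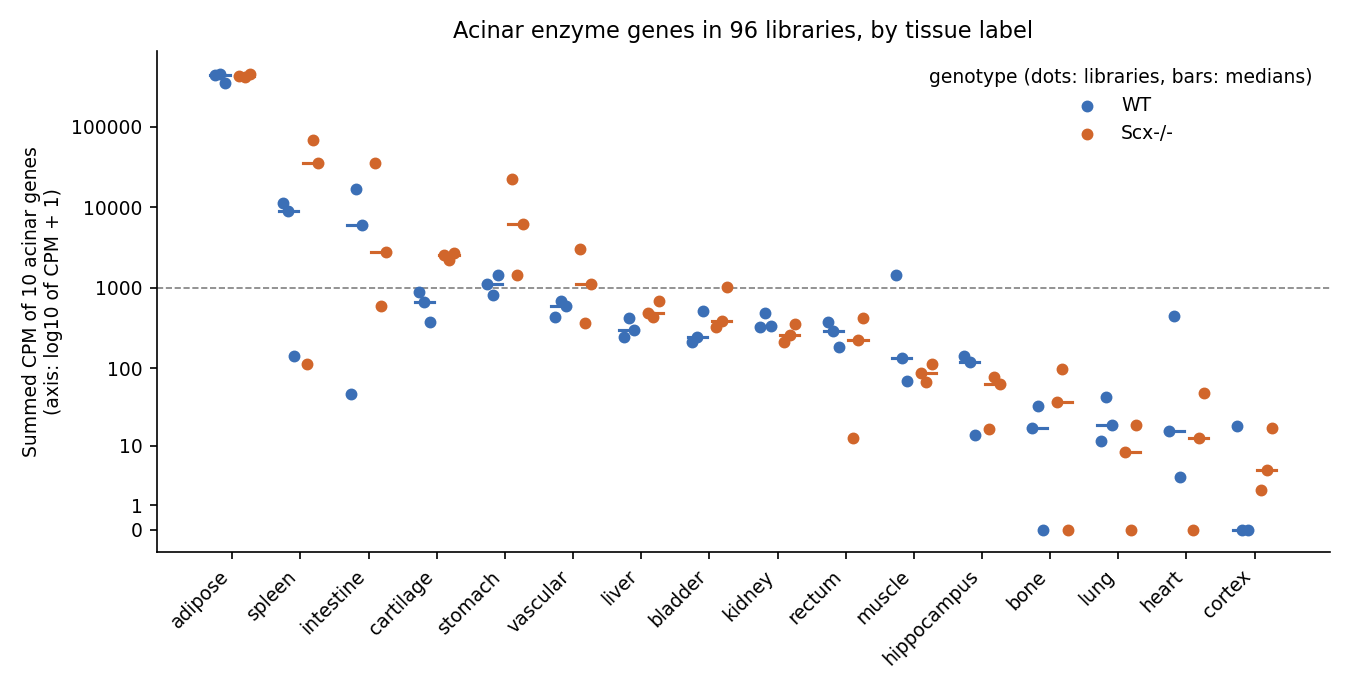
Summed CPM of the 10 acinar genes (y, log10 of CPM + 1) in each of 96 libraries, by tissue label in order of the tissue median, with WT in blue and Scx-/- in orange; dots are libraries, short bars are medians of 3 and the dashed line is at 1000 CPM. Adipose lies at 346406 CPM and above, spleen spans 111 to 68586 CPM, and 6 libraries of bone, lung, heart and cortex are at 0.

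Fat itself was scarcely seen in those libraries. Acinar transcripts took 68.1% to 78.9% of each of them, which lowers the CPM of every other gene there, and the values below were not rescaled for it. The 10 adipocyte genes summed to 143 to 398 CPM in WT and 63.7 to 83.9 CPM in Scx-/- adipose, against 3076 to 6653 CPM in cartilage, 937 to 7334 CPM in bladder and 11379 to 17541 CPM in vascular, the tissue highest in these genes. Adipoq, the gene of the fat hormone adiponectin, was at 0 in 5 of 6 adipose libraries and at 9.95 CPM in the other, and averaged 892 CPM ± 122 in WT vascular libraries (SD, n = 3). Fabp4, the fatty acid carrier of adipocytes, averaged 81.5 CPM ± 37.9 in WT adipose and 5430 CPM ± 245 in WT vascular libraries (SD, n = 3). Lep and Retn, which encode the adipocyte hormones leptin and resistin, were at 0 in all 6 adipose libraries, and Retn also in the WT vascular ones. In bulk RNA, fewer cells of a type and less RNA per cell cannot be told apart, here and in every tissue below.

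**Figure D2:**
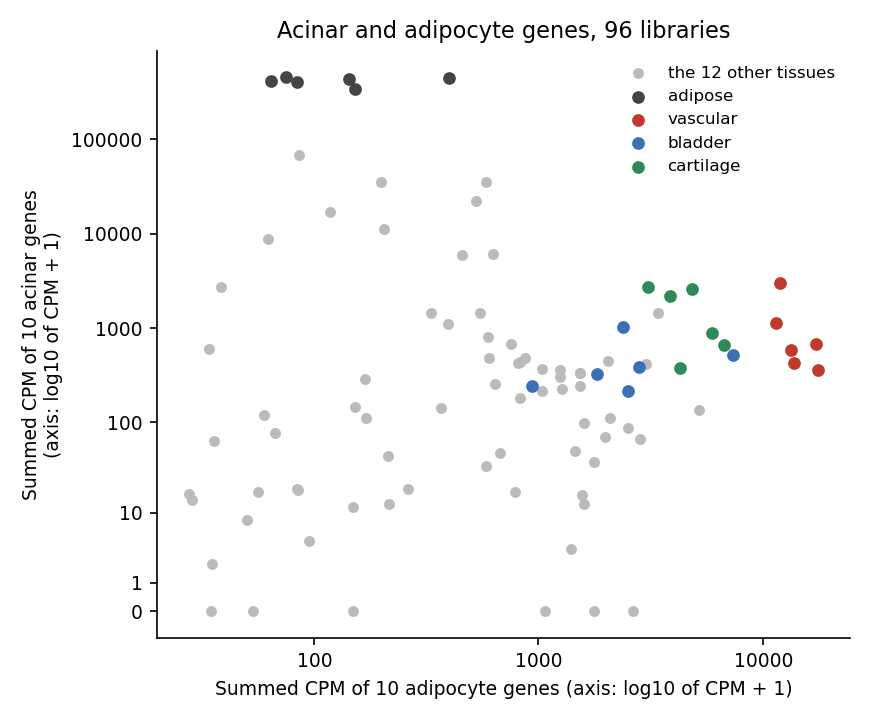
Summed CPM of 10 adipocyte genes (x) against summed CPM of the 10 acinar genes (y), both on log10 of CPM + 1, for 96 libraries, with 4 tissues in color and the others in grey. The 6 adipose libraries lie at the top left, at no more than 398 CPM of adipocyte genes, and the 6 vascular libraries at the right, at 11379 CPM and above.

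Among the endopeptidases, Ctrb1, the precursor of chymotrypsin B, gave 142423, 128338 and 113860 CPM in the WT adipose libraries and 155773, 135374 and 143276 CPM in the Scx-/- ones. The elastase genes followed with 60744 to 75643 CPM for Cela2a, 39093 to 72228 CPM for Cela1 and 22858 to 29104 CPM for Cela3b over the 6 libraries. Prss2, anionic trypsinogen, gave 53507, 47408 and 30401 CPM in WT and 28868, 27150 and 30324 CPM in Scx-/- adipose. Each Scx-/- value of Prss2 was thus below each WT value, the nearest pair differing by little, and no other acinar gene of the 9 separated the genotypes there. Genes with every Scx-/- library below every WT library were 0.946% of 10993 in this tissue. The exopeptidases Cpa1 and Cpb1, which trim hydrophobic and basic residues from the carboxyl end of peptides, held 30885 to 39421 and 22316 to 49175 CPM.

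Pnlip, pancreatic triglyceride lipase, was the most variable of the 9 within adipose, from 9871 CPM in WT replicate 3 to 39445 CPM in WT replicate 2. Clps, which encodes its colipase, was listed at 0 in the same libraries. Over the 1616961 adipose counts, 3 counts would allow up to 1.86 CPM of Clps, and 0.0892 CPM over all 33623569 counts of the series. The pancreatic amylase Amy2a5 was likewise at 0 in all libraries, while Amy2b averaged 2399 CPM ± 2165 in WT and 2930 CPM ± 1909 in Scx-/- adipose (SD, n = 3). Why 2 major acinar products were at 0 was not tested. Pdia2, the pancreatic protein disulfide isomerase that folds secreted enzymes in the endoplasmic reticulum, stood at 1204 to 2204 CPM.

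Within adipose, Ctrb1 gave 28.3% to 37.0% of the counts of the 10 genes, Cela2a 14.5% to 17.5%, Cela1 9.54% to 15.9%, Cpa1 7.56% to 8.92% and Pdia2 0.265% to 0.636%. Pnlip gave 2.85% to 8.69%, Cpb1 5.19% to 12%, Prss2 6.63% to 12.2% and Cela3b 5.03% to 7.10%. A distance from the mean adipose make-up, the shares averaged over the 6 adipose libraries, was computed for the 46 libraries with at least 100 counts of the 10 genes. It is the percentage points of counts that would have to move to another gene to match that mean. It ran from 4.05 to 6.68 points for the adipose libraries, which themselves form the mean, 7.22 to 10.8 points for 4 spleen libraries and 9.79 to 14.2 points for 3 intestine libraries. Cartilage lay at 7.90 to 17.0 points and liver at 5.77 to 29.1 points, the widest in WT replicate 2, where Cela1 took 42.2% of the counts. Vascular libraries lay at 13.0 to 34.7 points (5 libraries), bladder at 20.4 to 43.7 points and 1 muscle library at 22.4 points. Stomach spread from 9.12 to 62.2 points, and WT kidney (82.6 to 85.4 points) and 1 rectum library (86.4 points) lay farthest away. The shares of Cela1 and Pdia2 in stomach, kidney and rectum are given below.

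**Figure D3:**
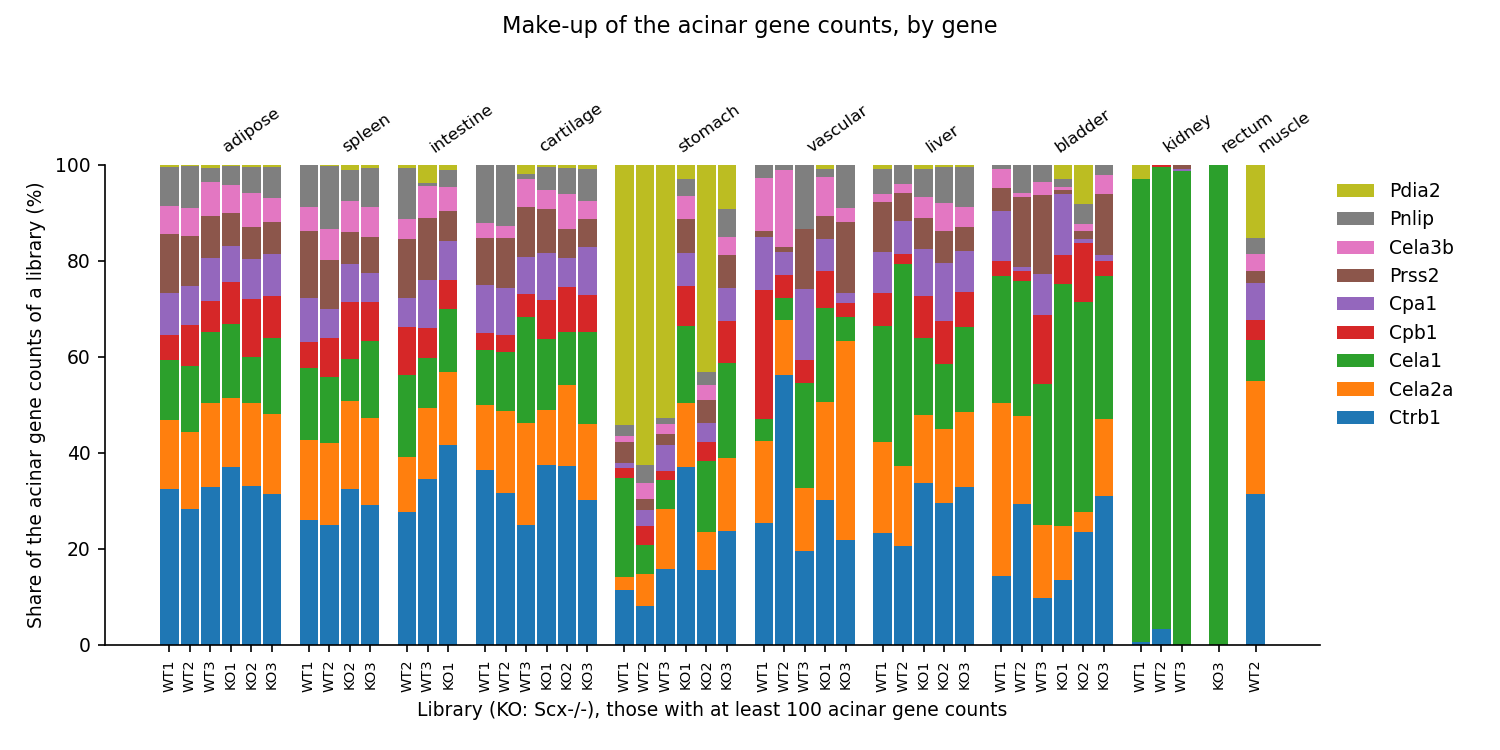
Share of the counts of the acinar genes given by each gene (stacked bars, percent, summing to 100) in the 46 libraries with at least 100 such counts, grouped by tissue (KO stands for Scx-/-). Ctrb1 takes 28.3% to 37.0% in the adipose libraries, Pdia2 takes 62.6% in stomach WT replicate 2, and Cela1 takes 96.2% to 98.7% in the 3 WT kidney libraries.

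Outside adipose, 20 libraries of 7 tissues exceeded 1000 CPM in sum, and only the Scx-/- cartilage and Scx-/- stomach groups did so in all 3 libraries. By median over 6 libraries the tissues ranked adipose, spleen (10003 CPM), intestine (4364 CPM), cartilage (1534 CPM), stomach (1431 CPM), vascular (633 CPM), liver (426 CPM), bladder (353 CPM), kidney (331 CPM), rectum (257 CPM), muscle (98.7 CPM), hippocampus (69.4 CPM), bone (25.4 CPM), lung (15.2 CPM), heart (14.2 CPM) and cortex (3.35 CPM). Only the step from adipose to spleen was free of overlap. Every other pair of neighbors in this order overlapped in range, so the order below adipose is not firm. All 9 genes with counts were present in 34 libraries, and 15 libraries held only 1 of them, which was Cela1 in 8.

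The spleen was split within each genotype. Its sums were 11156, 8849 and 142 CPM in the WT libraries and 111, 68586 and 35551 CPM in the Scx-/- libraries. WT replicate 3 and Scx-/- replicate 1 thus stood far below the other 4 libraries, and the genotypes overlapped fully. Ctrb1 spanned 4.27 to 22298 CPM, and Cela2a, Cpa1, Cpb1 and Pnlip were at 0 in the 2 low libraries. The 5 B-cell genes fixed as spleen markers summed to 680 and 996 CPM in those 2 libraries and to 1189 to 2048 CPM in the 4 rich in acinar RNA. Their part in the split was not tested.

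The intestine behaved alike, with 46.5, 17007 and 5973 CPM in WT and 35338, 600 and 2755 CPM in Scx-/- libraries. The highest library exceeded the lowest of its genotype 366-fold in WT and 58.9-fold in Scx-/- intestine, and 617-fold in Scx-/- spleen, against 1.31-fold in WT adipose. Ctrb1 reached 14739 CPM in Scx-/- replicate 1 and was at 2.58 CPM, a count of 1, in WT replicate 1. The intestine libraries held 26500 to 386890 counts, the most in WT replicate 1, the lowest in acinar counts per total. None of the 9 genes separated the genotypes in intestine.

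Cela1, the elastase gene that is also transcribed outside the pancreas, departed from the rest in kidney and rectum. In kidney it gave 318, 465 and 327 CPM in WT and 210.1, 236 and 334 CPM in Scx-/- libraries, 96.5% of the counts of the 10 genes there. Cela3b and Pnlip were at 0 in all 6 kidney libraries, and Ctrb1 had 23 counts in 3 of them. The kidney groups overlapped, WT replicates 1 and 3 lying below Scx-/- replicate 3. In rectum Cela1 stood at 326, 289 and 181 CPM in WT and at 0, 169 and 424 CPM in Scx-/- libraries and made up 92.0% of the counts. Bone and cortex held little of any acinar gene, and Cela1 again gave most of it, 64.0% of 25 counts in bone and 65.6% of 61 in cortex. Adipose, by contrast, held 14.0% of its counts in Cela1.

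Pdia2 departed in stomach. Its level there was 606, 506 and 752 CPM in WT and 630, 619 and 568 CPM in Scx-/- libraries, an even level in libraries whose other acinar genes spread widely. It accounted for 54.2%, 62.6% and 52.7% of the counts of the 10 genes in the WT libraries and 2.82%, 43.2% and 9.25% in the Scx-/- ones. Pdia2 did not separate the genotypes in stomach, with a log2 fold change (Scx-/- over WT) of -0.04 ± 0.28 (SE). In the plot of Cela1 and Pdia2 against the other 8 genes, both genes rose with the others at the upper end and kept a level of their own at the lower end, Cela1 in kidney and rectum and Pdia2 in stomach. Leaving both out brought the stomach distances from 9.12 to 62.2 points down to 1.67 to 17.9 points, a change made after their levels had been seen.

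**Figure D4:**
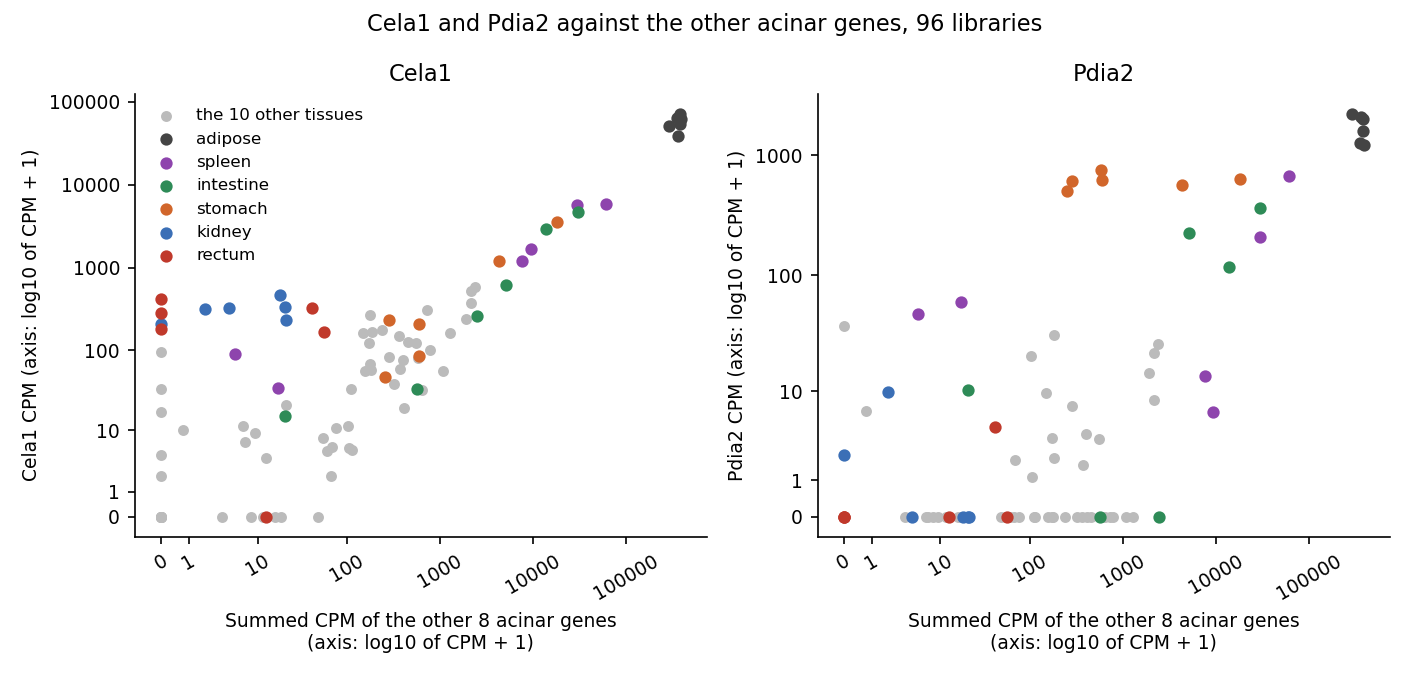
Cela1 (left) and Pdia2 (right) in CPM (y) against the summed CPM of the other 8 acinar genes (x), all on log10 of CPM + 1, for 96 libraries with 6 tissues in color. The 6 kidney libraries hold 210.1 to 465 CPM of Cela1 with few counts of the other genes, and the 6 stomach libraries hold 506 to 752 CPM of Pdia2 at any level of the other genes.

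The genes closest to the 10 in pattern were themselves acinar. Over 96 libraries the Pearson correlation of log2(CPM + 1) with the summed level was highest for Rnase1, pancreatic ribonuclease (r = 0.879), Pnliprp1, a lipase-related protein (0.879), and Ctrl, a chymotrypsin-like protease (0.878). Next came Try4 (0.866), 2210010C04Rik (0.863), Reg1 (0.861), Cel (0.859), Try5 (0.838), Pnliprp2 (0.816) and Gp2 (0.797), out of 17403 genes compared. The same 10 genes led over the 90 libraries outside adipose, from 0.803 for Rnase1 to 0.650 for Gp2. All 10 were in the list of other acinar secretory genes. The points share library depth and tissue, so the correlations are a description.

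Genotypes were then compared within each tissue. The edgeR quasi-likelihood test was fitted over all genes of a tissue with Benjamini-Hochberg adjustment, and 120 of 160 gene and tissue pairs had counts to test. At an adjusted p under 0.05, 4 pairs passed, against 0.0914% of all genes tested in the 16 tissues together, and none passed after edgeR's filter on low counts. At the thresholds of the study's methods, an unadjusted p under 0.05 and a log2 fold change beyond 1 either way, 18 pairs passed, against 3.71% of all genes. Without WT replicate 1 of each tissue 11 passed the latter. Of the 18, 17 were higher in Scx-/- libraries, in 7 tissues, and 1 was lower, Cpb1 in muscle. The genes had been picked with such calls known, so the counts describe where they lie and are no independent evidence.

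Cartilage showed the most even difference. The summed level was 881, 661 and 377 CPM in WT and 2572, 2186 and 2714 CPM in Scx-/- libraries, so that every Scx-/- library stood above every WT library and the means differed 3.89-fold. All 9 genes with counts had each Scx-/- library above each WT library, which held for 3.31% of 13534 genes in this tissue. For Pdia2 this rested on only 13 counts in 4 libraries. The genes are members of a single secretory program and moved together, so 9 such genes are not 9 independent observations.

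Ctrb1 gave 321, 210 and 94.3 CPM in WT cartilage and 963, 813 and 819 CPM in Scx-/- cartilage. It rose by a log2 fold change of 2.10 ± 0.45 (SE, adjusted p = 0.0470, edgeR), and 0.0222% of genes passed in this tissue. That call was lost in 8 of 12 alternatives, among them DESeq2 (adjusted p = 0.308) and the fits without WT replicate 2, without WT replicate 3 or without any 1 Scx-/- library. Over the alternatives the adjusted p ran from 0.000134 to 0.843 and the log2 fold change from 1.74 to 2.60. Cpb1 had the largest fold of the 9, from 32.1, 24.2 and 18.1 CPM in WT to 210.9, 205 and 207 CPM (log2 fold change 3.09 ± 0.88). With Cela1 (2.15 ± 0.60), Cela2a (1.86 ± 0.59), Cela3b (2.50 ± 1.14) and Cpa1 (1.90 ± 0.75), 6 genes passed the study thresholds, against 1.71% of genes called higher. Prss2 (1.47 ± 0.80), Pnlip (1.19 ± 0.87) and Pdia2 (2.41 ± 2.76) did not. The median over the 9 was 2.10, beside 0.07 over all genes.

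Of the other acinar genes, 24 were tested in cartilage and 7 passed the study thresholds, all higher in Scx-/-, 16 of the 24 lay above WT in every library, and their median log2 fold change was 1.88. The adipocyte genes stood at 4279 to 6653 CPM in WT and 3076 to 4838 CPM in Scx-/- cartilage, with overlap. Since the library labelled Scx-/- replicate 1 held Scx counts, the fit was repeated without it, and 6 of the 9 genes again passed the study thresholds.

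Liver showed a smaller difference of the same sign. The sums were 241, 416 and 299.9 CPM in WT and 483, 436 and 686 CPM in Scx-/- libraries, 1.68-fold apart in mean and without overlap. Other marker lists also separated the genotypes in liver, and their part was not tested. Adipocyte genes summed to 1245 to 3013 CPM in WT and 755 to 871 CPM in Scx-/- liver, with 3 of 7 called lower at the study thresholds, against 2.01% of all genes. Stomach genes summed to 351 to 750 CPM in WT and 214 to 328 CPM in Scx-/- liver. Amy1, the salivary amylase also made in liver, stood at 204 to 258 CPM in WT and 293 to 391 CPM in Scx-/-. Of the 9 genes, 5 (Cpa1, Cpb1, Ctrb1, Pnlip and Prss2) had every Scx-/- library above every WT library, against 5.43% of 13356 genes. Only Ctrb1 passed the study thresholds, with 56.1, 85.6 and 74.1 CPM in WT and 163, 129 and 226 CPM in Scx-/- (log2 fold change 1.46 ± 0.52, edgeR adjusted p = 0.429), where 2.28% of genes passed as higher. Cela1, at 58.2, 175 and 123 CPM in WT and 76.8, 59.6 and 122 CPM in Scx-/- liver, overlapped and had a log2 fold change of -0.24 ± 0.56. None of the 23 other acinar genes tested passed there, while 8 of them had every Scx-/- library above every WT library, and their median log2 fold change was 1.22 beside 0.22 over all genes.

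Stomach had a higher ratio and a wide spread within Scx-/-. The sums were 1119, 808 and 1429 CPM in WT and 22322, 1434 and 6141 CPM in Scx-/- libraries, and the ratio of means was 8.91. Scx-/- replicate 2 lay just above the highest WT library, so the groups touched without overlap. With acinar genes left out of the totals they overlapped, at 1455 CPM in Scx-/- replicate 2 and 1456 CPM in WT replicate 3, and without Scx-/- replicate 1 the ratio of means was 3.39. Without Cela1 and Pdia2 the means were 375 CPM in WT and 7706 CPM in Scx-/-, a ratio of 20.5. The stomach's own marker genes summed to 188203 to 240358 CPM in WT and 154185 to 185360 CPM in Scx-/- libraries, without overlap, and their part was not tested. Pnlip passed the adjusted threshold, at 25.0, 29.9 and 19.8 CPM in WT and 829.9, 37.7 and 351 CPM in Scx-/- stomach (log2 fold change 4.07 ± 0.74, edgeR adjusted p = 0.0393), where 0.0609% of genes passed. With Cela3b (4.31 ± 1.46), Cpb1 (4.97 ± 1.60) and Prss2 (4.41 ± 1.51), 4 genes passed the study thresholds, against 2.02% called higher, and the same 4 lay without overlap, against 4.99% of 14770 genes. Leaving out any 1 WT library took the number passing to 0, and leaving out Scx-/- replicate 1, 2 or 3 gave 8, 8 and 2. DESeq2 also gave 8. The number called thus moved with single libraries. For Pnlip the adjusted p ran from 2.16e-18 to 0.9996 over 12 alternatives, and the call was lost without any 1 WT library, without Scx-/- replicate 1 or without Scx-/- replicate 3. The other acinar genes that passed the adjusted threshold included Amy2b (log2 fold change 5.82), Try5 (4.68) and Sycn (3.17), each higher in Scx-/- stomach.

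**Figure D5:**
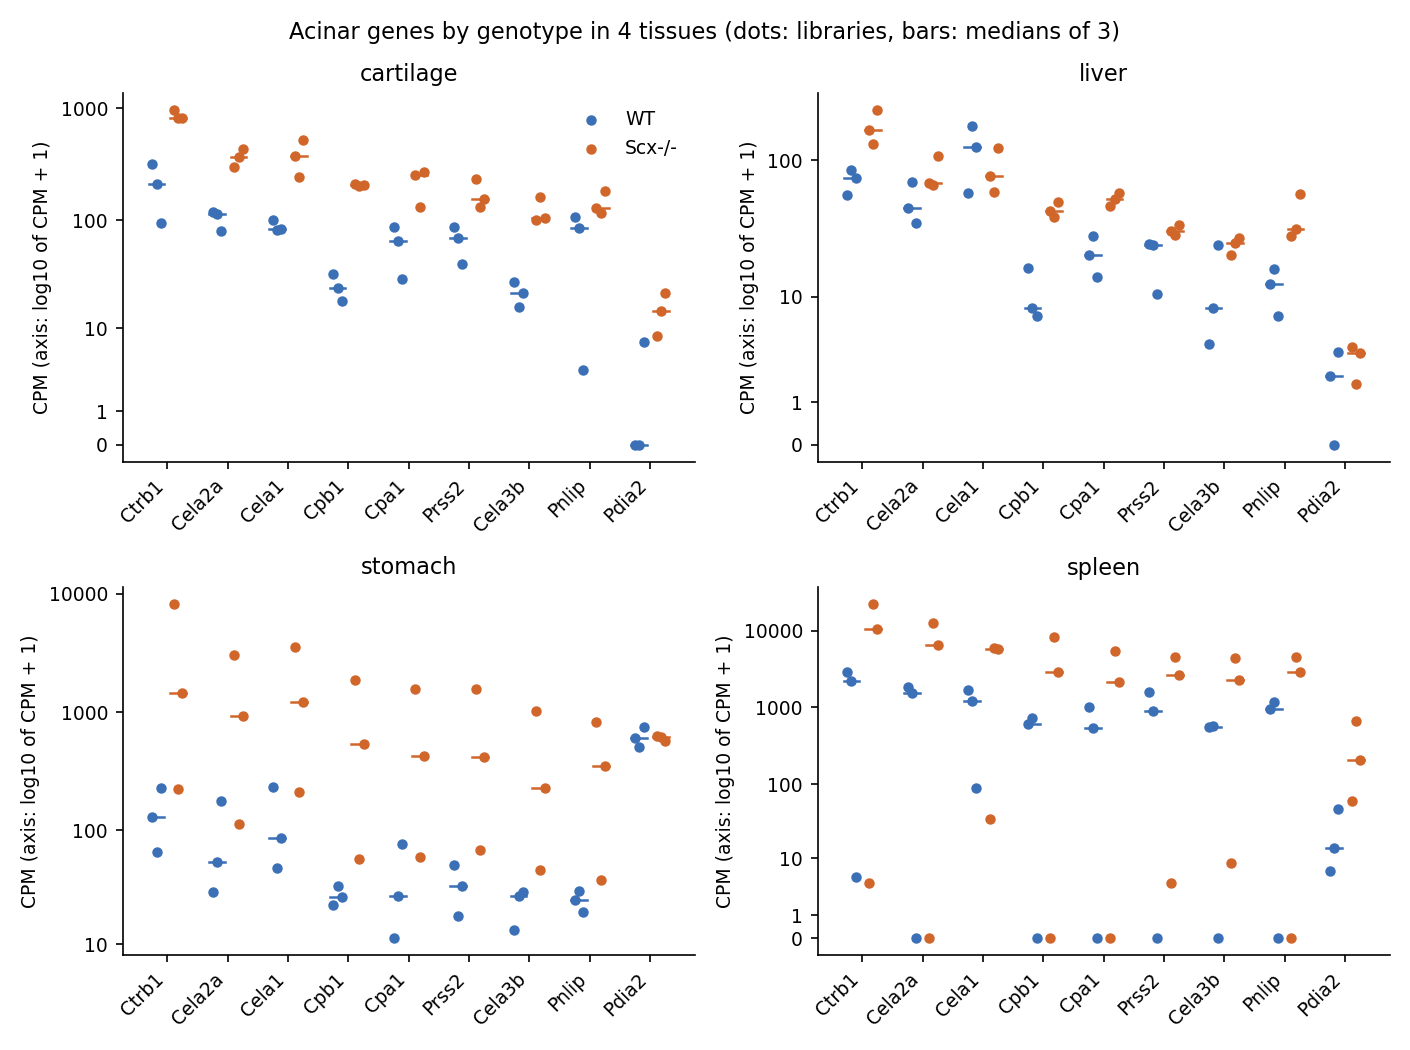
CPM (y, log10 of CPM + 1) of the 9 acinar genes with counts in cartilage, liver, stomach and spleen, WT in blue and Scx-/- in orange; dots are libraries and short bars medians of 3. In cartilage all 9 genes separate the genotypes, Pdia2 on only 13 counts in all. In spleen the libraries of each genotype span several powers of 10, and in stomach Pdia2 stays at 506 to 752 CPM.

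In spleen the acinar genes did not separate the genotypes, apart from Pdia2. Pdia2 stood at 6.42, 13.8 and 47.4 CPM in WT and 59.8, 670 and 209 CPM in Scx-/- libraries, where the 6.42 CPM of WT replicate 1 came to 3 counts. It had a log2 fold change of 4.22 ± 0.79 (SE, adjusted p = 0.00126, edgeR), and it was the only 1 of 13894 genes to pass (0.0072%). It lay without overlap, as did 1.59% of genes, and was also the only acinar gene of the 9 past the study thresholds, which 1.5% of genes passed as higher. With DESeq2 its adjusted p was 0.0780, within a range of 3.17e-07 to 0.9996 over 12 alternatives. The call was lost without WT replicate 1, without WT replicate 2 or without Scx-/- replicate 2. Liver genes also separated the genotypes in spleen, at 179 to 376 CPM in WT and 412 to 915 CPM in Scx-/-, and their part was not tested. Within WT the highest value of Pdia2 was in replicate 3, which was poorest in the other acinar genes. Within Scx-/- its lowest was in replicate 1, likewise poor in them. Ctrb1 in spleen had a log2 fold change of 2.85 ± 2.99, and the summed means of 6716 ± 5809 CPM in WT and 34749 ± 34245 CPM in Scx-/- (SD, n = 3) differed by no more than the spread between libraries.

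In adipose, Cpb1 passed the adjusted threshold, the only gene of 10993 to do so (0.0091%), and was the only acinar gene of the 9 past the study thresholds, which 2.13% of genes passed as higher. It gave 22764, 39266 and 22316 CPM in WT and 37127, 49175 and 39496 CPM in Scx-/- libraries, and WT replicate 2 lay within the Scx-/- range. Its log2 fold change was 1.15 ± 0.22 (SE, adjusted p = 0.00280, edgeR). In that fit the median log2 fold change over all genes was 1.47, so that Cpb1 lay below the middle of all genes, and Prss2 stood at -0.07. The WT libraries held 100469 to 140132 counts and the Scx-/- ones 333668 to 498158, and the part of this in the median was not tested. Scaled by library totals alone, Cpb1 had a log2 fold change of 0.58 and was not called. DESeq2 did not call it either (adjusted p = 0.998, the highest of 12 alternatives, the lowest being 0.000374), nor did the fits without Scx-/- replicate 2 or without Scx-/- replicate 3. The summed CPM on library totals overlapped, with a ratio of means of 1.04. Scaled by TMM factors over the 96 libraries it did not overlap, at 483618 to 819812 in WT and 1054982 to 1439224 in Scx-/- adipose, a ratio of 1.81. Other marker lists also separated the genotypes in adipose, and their part was not tested. Stomach genes summed to 931 to 1244 CPM in WT and 253 to 458 CPM in Scx-/-, and adipocyte genes to 143 to 398 and 63.7 to 83.9 CPM.

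Bladder, vascular and muscle gave a few more calls at the study thresholds. In bladder 3 genes passed as higher, against 1.81% of genes. They were Cela1 (56.1, 67.8 and 151 CPM in WT and 162, 168.5 and 309 CPM in Scx-/-, log2 fold change 1.14 ± 0.48), Ctrb1 (1.45 ± 0.60) and Pdia2, which was at 0 in all 3 WT libraries and had 14 counts in 2 of the Scx-/- ones. Cela1 was the only acinar gene of the 9 without overlap there, against 3.56% of genes. It gave 33.6% of the counts of the 10 genes in bladder, beside 14.0% in adipose. Liver genes summed to 62.5 to 172 CPM in WT and 354 to 3938 CPM in Scx-/- bladder, with 3 of 5 called higher, and their part was not tested. Without WT replicate 1 none of the 3 passed, and 1 did without WT replicate 2. In vascular libraries Cela2a passed (1.99 ± 0.76, against 1.71% called higher) with 73.3, 77.6 and 77.9 CPM in WT and 609, 64.8 and 469 CPM in Scx-/-, which overlapped. Duct genes stood there at 56.4 to 84.1 CPM in WT and 118 to 190.03 CPM in Scx-/-. In muscle Cpb1 passed as lower (-2.43 ± 0.98, against 2.44% called lower), and this rested on WT replicate 1, a library of 30409 counts with 19 of Cpb1. Without that library the log2 fold change of Cpb1 in muscle was 1.47. Cela3b had every Scx-/- muscle library below every WT library, against 2.17% of genes, on 0 to 7 counts a library.

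In the remaining 8 tissues none of the 9 genes passed at either threshold, while 2.69% to 5% of all genes passed the study thresholds there. Hippocampus held 104 counts of the 10 genes in 1696625, heart 24 in 1297135 and lung 10 in 897660, so that little could be compared there. Kidney, rectum, bone, cortex and intestine, described above, also gave no call. With 3 libraries against 3, an exact permutation test of a summed level cannot give a two-sided p below 0.1, and none is given.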

How the data were processed

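Counts per gene were taken as deposited. According to the study's methods, the authors extracted total RNA with Trizol, pooled barcoded samples after reverse transcription, built 3′-enriched libraries, used Bowtie2 with its defaults for alignment to the mm10 build, and obtained counts for each gene symbol from HTSeq. Bowtie2 does not split reads across introns, and reads shared by near-identical or overlapping genes could be placed on either or dropped. How strand was treated was not given in the sources used here.

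CPM were counts over the library total. Genotypes were compared within each tissue, 3 libraries against 3, with edgeR 4.0.16 (robust quasi-likelihood test, TMM factors, all genes with a count, Benjamini-Hochberg adjustment, R 4.3.3), and a standard error is the log2 fold change over the square root of F. Alternatives were DESeq2 1.42.0, RLE factors, library totals, totals without acinar genes, edgeR's filter on low counts, a replicate block and each replicate left out. The scripts were tested on simulated data. In those, of 100 genes changed 16-fold, 63 were recovered in liver, 47 in spleen, 39 in cartilage and 2 in adipose, and of 100 changed 4-fold, 10, 1, 7 and 0.

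The genes named are the 10 acinar genes, in tissues where their sum exceeded 1000 CPM in a library or where 1 was called, the 10 genes most like them among genes with a mean of 10 CPM or more in a group, and from the marker lists the genes called or most abundant. The members and lists were chosen with earlier results of these data known. Make-up was computed from 100 counts upward. Depth sets the precision of each value, and limits from 3 counts cover counting error only. Python 3.11.15, pandas 2.3.3 and scipy 1.17.1 were used.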

Additional observations from a re-analysis of the deposited data

Results flagged for a closer look

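In 2 of the genes the Scx-/- and WT libraries separated completely in opposite directions in different tissues, and the difference between tissues was not itself tested. The same held for 2709 of the 22493 genes with a count. For Cela3b, a pancreatic elastase gene, the ratio of mean CPM in Scx-/- over WT was 5.58 in cartilage and 18.6 in stomach, where every Scx-/- library was higher, and 0.0397 in muscle, where every Scx-/- library was lower on 0 to 7 counts a library. Without Scx-/- replicate 1 the stomach ratio was 5.90, and without WT replicate 1 the muscle ratio was 0.161. For Prss2, anionic trypsinogen, the ratio was 2.67 in cartilage, 1.58 in liver and 20.5 in stomach, each higher in every Scx-/- library, and 0.658 in adipose, where every Scx-/- library was lower, the nearest pair being 30324 and 30401 CPM, with a fitted log2 fold change of -0.07. Without Scx-/- replicate 1 the stomach ratio of Prss2 was 7.27.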

How the results depend on the processing

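The number of acinar genes called in cartilage at the study thresholds, 6, stayed at 5 to 7 over 12 alternatives. The 4 calls at an adjusted p under 0.05 became 0 with edgeR's filter on low counts and 1 with DESeq2, and 1 to 7 with a replicate number left out (1 without WT replicate 2 or Scx-/- replicate 3, 2 without WT replicate 3, 7 without Scx-/- replicate 1). The 18 calls at the study thresholds ranged from 11 (without WT replicate 1) to 24 with a replicate left out. Those in bladder, 3, ranged from 0 to 2 and those in stomach, 4, from 0 to 8, and DESeq2 gave 8 in stomach. Cpb1 in muscle turned from a log2 fold change of -2.43 to 1.47 without WT replicate 1 and was at -3.15 without WT replicate 2. Whether replicate numbers pair WT with Scx-/- libraries of a tissue was not given. Of 48 such pairs, 0 correlated above 0.1 (-0.12 to 0.026), which with 3 libraries a group does not settle it. With the replicate number as a block, 4 and 13 calls were made, and 1 in bladder. The 4 were Cela1, Cela3b, Pnlip and Prss2 in stomach, of which only Pnlip was called without the block, and Cpb1 in adipose (adjusted p = 0.949, edgeR), Ctrb1 in cartilage (0.0715) and Pdia2 in spleen (0.737) were not called.

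Of 224 summed levels recomputed, 207 moved by less than 1 SD. With acinar genes left out of the totals, adipose came to 1765860 CPM in WT and 1788799 CPM in Scx-/-. With TMM factors over the 96 libraries, it came to 667043 and 1209624 CPM, liver to 453 and 1022 CPM and Scx-/- muscle to 169 CPM. Without Prss2 and Pdia2, Scx-/- adipose came to 397936 and WT stomach to 464 CPM. Without Cela1 and Pdia2, Scx-/- adipose came to 368150.5 CPM, Scx-/- cartilage to 2095, WT stomach to 375, WT liver to 198, WT rectum to 13.8, kidney to 8.21 in WT and 14.0 in Scx-/-, and WT bone to 0 CPM. The cause of these changes lies in the scaling or the genes summed. Depth limits the tissues with few counts of these genes, and 3 libraries a group limit every comparison.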

Other observations

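Endocrine transcripts of the pancreas were also present in the libraries labelled adipose. The 7 islet genes summed to 1473 to 2890 CPM in WT and 354 to 2768 CPM in Scx-/- adipose libraries, and Ins2, which encodes insulin, led them with 1672 CPM ± 673 in WT and 1208 CPM ± 860 in Scx-/- (SD, n = 3). The acinar regulators summed to 627 to 764 CPM in WT and 519 to 799 CPM in Scx-/- adipose. Among them Cckar, the cholecystokinin receptor that triggers enzyme release, averaged 421 CPM ± 275 in WT and 300.2 CPM ± 85.7 in Scx-/- (SD, n = 3). Rbpjl and Bhlha15, transcription factors of mature acinar cells, averaged 116 and 81.7 CPM in WT and 174 and 182 CPM in Scx-/- adipose. The 6 duct genes came to no more than 92.3 CPM in any adipose library. Of the 7 salivary gland genes, which share serous secretion with the acinar pancreas, only Amy1 had counts in adipose, at a mean of 26.6 CPM in WT and 63.3 CPM in Scx-/-. Stomach genes summed to 931 to 1244 CPM in WT and 253 to 458 CPM in Scx-/- adipose libraries, against 154185 to 240358 CPM in stomach.

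Some other acinar secretory genes had a level of their own outside the libraries rich in the 10 genes. Pla2g1b, pancreatic phospholipase A2, averaged 13527 CPM ± 1307 in WT and 12508 CPM ± 1077 in Scx-/- stomach. In kidney, Klk1, tissue kallikrein, averaged 2836 CPM ± 1087 in WT and 2458 CPM ± 263 in Scx-/-, and Spink1, a trypsin inhibitor, 1185 CPM ± 57.1 and 912 CPM ± 51.4 (SD, n = 3 each).

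Ctrc, the chymotrypsin C gene that overlaps Cela2a on the same strand, was unevenly present. It was examined in the 15 libraries with at least 100 counts of Cela2a, a minimum chosen after the values had been seen. Per 100 counts of Cela2a, the 6 WT libraries of adipose, spleen and intestine held 8.40 to 17.1 counts of Ctrc, with a median of 10.5. The 9 Scx-/- libraries held 0 to 8.23, with a median of 0.191. The 2 that carried replicate number 2 had 7.54 in adipose and 8.23 in spleen, and the other 7, numbered 1 or 3 and from adipose, spleen, stomach, intestine and cartilage, had 0 to 0.840. In adipose Ctrc stood at 6180, 6599 and 10365 CPM in WT and at 157, 5392 and 145 CPM in Scx-/- libraries, and edgeR's quasi-likelihood test gave a log2 fold change of -1.40 (adjusted p = 0.683). Cela2a stood at 60955, 71553 and 75643 CPM in the same Scx-/- adipose libraries. Whether a replicate number marks 1 animal across tissues was not tested.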
